A study of Mus musculus with 24 samples.

Results

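The genes described here are 57 genes of transforming growth factor beta (TGF-beta) and bone morphogenetic protein (BMP) signalling, out of 37310 genes in the expression tables. They were taken from a list of symbols, with earlier results of these data known, and each symbol matched 1 gene identifier. The list holds 3 TGF-beta ligands, 13 BMP and growth differentiation factor (GDF) ligands, 3 activin and inhibin subunits, 12 receptors, 8 SMAD proteins, 8 antagonists and ligand-binding proteins, 4 latent TGF-beta binding proteins, 4 Id genes that BMP is known to induce, the matrix protein Tgfbi and the protease Bmp1. Ligands of this family bind pairs of type I and type II receptor kinases at the cell surface, which phosphorylate SMAD proteins that move to the nucleus with Smad4. TGF-beta and activin ligands act mostly through Smad2 and Smad3, and BMP ligands through Smad1, Smad5 and Smad9, while Smad6 and Smad7 inhibit the pathway. In fat, TGF-beta and activin are known to restrain the conversion of precursors to adipocytes, and several BMP ligands are known to promote it.

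Stromal vascular cells, the mixed fraction that holds the adipocyte precursors, had been taken from C57BL/6 mice 6 weeks old and induced to differentiate in culture. The white cells (WAT) came from inguinal fat and the brown cells (BAT) from the interscapular depot. The medium held EGCG (epigallocatechin gallate, the main green tea catechin), at a dose that the labels do not give, or the solvent DMSO as control. RNA was sequenced on day 4, when the induction medium with insulin, dexamethasone and 3-isobutyl-1-methylxanthine was withdrawn, and on day 8, after a further stay in medium with insulin and T3. There were 8 groups of 3 libraries, namely WAT or BAT cells, day 4 or day 8, control or EGCG. The labels do not say whether the libraries of a group came from separate isolations or mice, so the p-values measure the spread between these libraries, which may be technical.

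Expression is given as FPKM, the reads of a gene scaled to its length and to the reads on all genes of the library, and 3 values in a row are those of replicates 1, 2 and 3. Replicates 1 and 2 (39452696 to 52893848 reads on genes) and replicate 3 (16392420 to 41675643) stood in tables that had been scaled separately, so tests used replicates 1 and 2, and replicate 3 gave a direction only. In the EGCG-treated WAT cells of day 8, 5 genes of replicate 3 took 61.0% of the reads, against 3.64% to 10.5% in the other libraries. Adipocyte markers were present in all control groups, with a summed level of 3688 to 4058 FPKM in WAT and 6276 to 7269 in BAT cells of replicates 1 and 2 on day 4. All 9 markers were called lower with EGCG in each of the 4 comparisons. On day 8 the sum was 6137 to 6913 FPKM in WAT controls and 649.8 to 712 with EGCG, and 11031 to 11105 in BAT controls and 467 to 475 with EGCG. In these mixed cultures, fewer cells of a type and less RNA per cell cannot be told apart. The brown fat marker Ucp1 stood at 6.97, 6.15 and 4.20 FPKM in BAT day 8 controls and 0.423, 0.243 and 0.217 in BAT day 4 controls. It was at or below 3 reads in replicates 1 and 2 of WAT day 8 controls and all 4 groups with EGCG. Of 5 brown fat markers, 4 were called lower and 1 higher with EGCG in BAT day 8 cells (26.1% and 46.5% of all genes). The higher one was Zic1, at 4.05, 3.57 and 4.38 FPKM in controls and 8.00, 7.78 and 6.64 with EGCG. In WAT day 4, WAT day 8 and BAT day 4 cells, 1, 1 and 0 were called higher and 1, 0 and 2 lower. The white depot genes Hoxc10, Hoxc9 and Hoxa9 summed to 13.3 to 15.6 FPKM in WAT and 0.454 to 0.483 in BAT day 4 controls.

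Of the 57 genes, 51 reached 1 FPKM in at least 2 of the 16 libraries and were tested. The other 6 were the ligands Bmp3, Bmp5, Bmp7, Bmp8b, Gdf5 and Mstn (myostatin). Among the genes tested, the most abundant was Fstl1, a secreted follistatin-like glycoprotein, at 296 to 895 FPKM across the 8 group means, and the type II receptor Acvr2b stayed between 0.395 and 1.14. For 19 of the 57 genes the span of another annotated gene overlaps the locus. Examples are Txndc5 at Bmp6, Orc4 at Acvr2a and Thpo at Chrd. Whether exons overlap was not checked. It is not stated that counting used the strand, so reads on any shared exon bases cannot be told apart.

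EGCG was compared with control in each depot on each day to ask which pathway genes changed when differentiation took place with the catechin. Called means an adjusted p under 0.05 (limma, Benjamini-Hochberg over 14095 genes). In WAT cells on day 4, 35 of the 51 genes were called, 24 higher and 11 lower, against 53.7% of all genes tested, and their median log2 change was 0.24 against 0.09 over all genes. A change of at least 2-fold in FPKM + 1 was called for 11 of the 51, against 6.78% of all genes. When libraries were rescaled by the median ratio of their genes (median-ratio scaling), the split was 18 higher and 15 lower. On day 8, 44 were called in WAT cells (34 higher, 10 lower; 63.6% of all genes), with a median of 0.42 against 0.17, and 13 of them changed at least 2-fold (9.39% of all genes). BAT cells had 38 on day 4, 28 higher and 10 lower, against 48.5% of all genes, with a median of 0.36 against 0.03. Of these, 14 changed at least 2-fold (6.13% of all genes). On day 8 BAT cells had 43, 33 higher and 10 lower, against 72.6%, with a median of 0.45 against 0.17 and 17 changed at least 2-fold (17.9%). The day 8 split in BAT cells was 28 higher and 14 lower with median-ratio scaling. Median-ratio scaling also moved the median of all genes, from 0.17 to 0.00 in WAT and from 0.17 to 0.01 in BAT cells on day 8. The shares of all genes called higher were 34.4% and 44.7% in WAT and 27.9% and 46.5% in BAT cells, day 4 first. Those called lower were 19.3%, 18.9%, 20.6% and 26.1% in the same order. Since a large share of all genes was called in every comparison, the genes are described below by the size of their changes.

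Across the 4 EGCG comparisons, 15 of the 51 genes were called higher each time, against 13.3% of all genes tested, and 2 were called lower each time, against 6.21%. The 15 were the ligand genes Tgfb1, Bmp6, Gdf11, Gdf15, Inhba and Inhbb, the receptors Tgfbr1 and Acvrl1, Smad1, Smad3 and Smad7, the antagonists Grem1 and Fstl3, Ltbp1 and Bmp1. Smad3 and Ltbp1 on WAT day 4, and Ltbp1 and Fstl3 on WAT day 8 and Fstl3 on BAT day 8, were not called with median-ratio scaling. The 2 lower genes were the receptor Acvr1c and Id4. Replicate 3 moved in the same direction for 33 of the 35 called genes in WAT day 4, 38 of 38 in BAT day 4 and 43 of 43 in BAT day 8 cells. In WAT day 8 cells it did so for 20 of 44. After median-ratio scaling the numbers were 33 of 35 and 37 of 44 in WAT and 37 of 38 and 41 of 43 in BAT cells. Over all called genes the shares before that scaling were 95.3% and 35.5% in WAT and 96.1% and 96.2% in BAT cells, day 4 first. After it they were 93.4% and 85.8% in WAT and 95.7% and 90.0% in BAT cells.

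**Figure D1:**
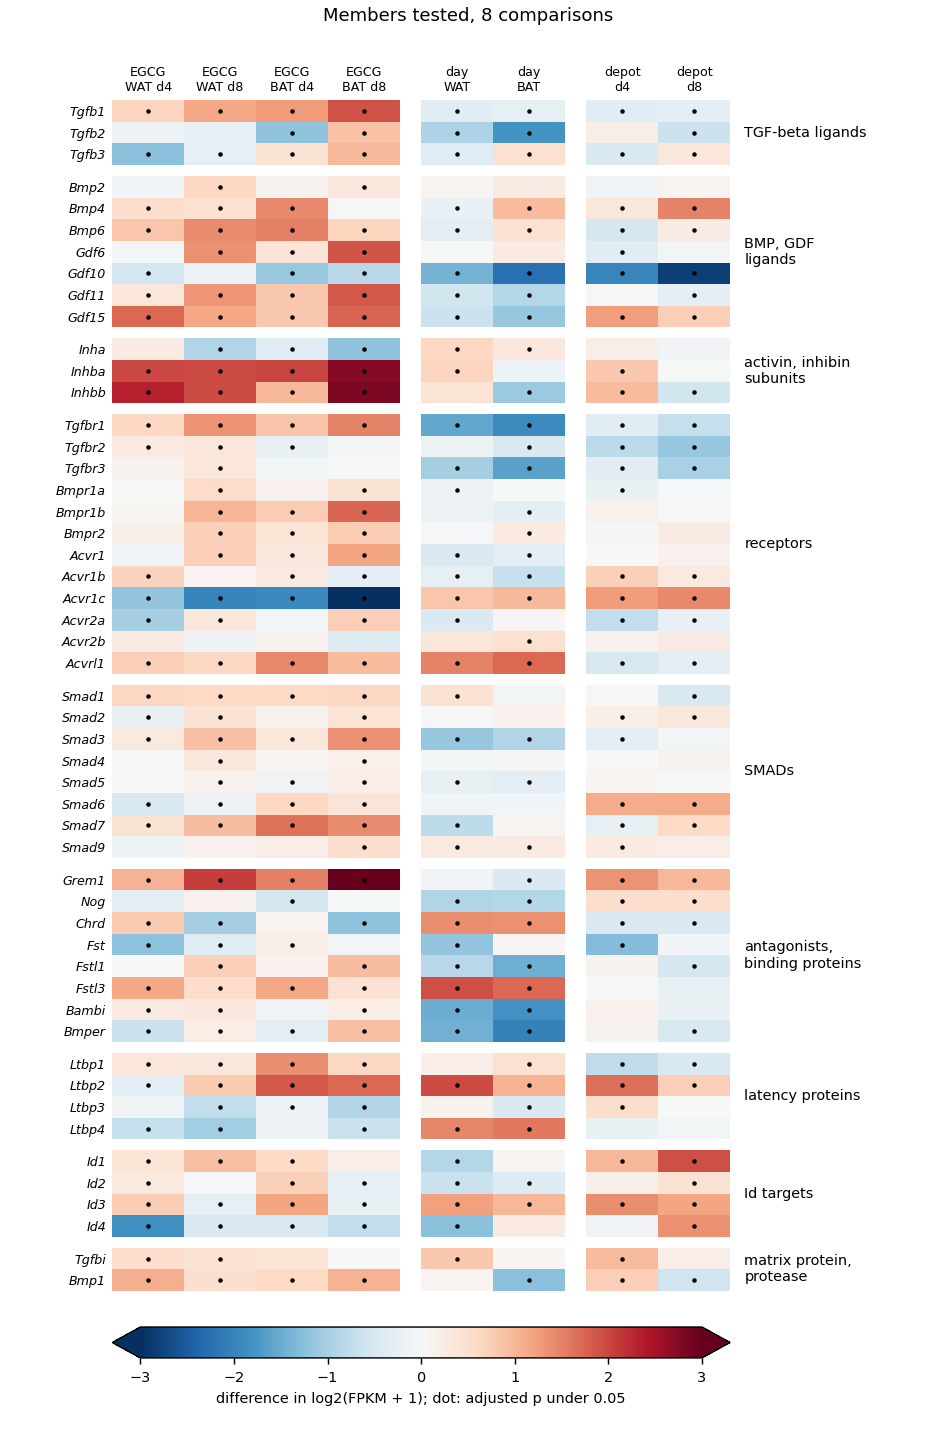
Difference in log2(FPKM + 1) of the 51 genes tested (rows, by role) in 8 comparisons (columns): EGCG minus control in WAT and BAT cells on day 4 (d4) and day 8 (d8), day 8 minus day 4 in WAT and BAT controls, and BAT minus WAT controls on day 4 and day 8, from replicates 1 and 2. Red is higher and blue lower, colours saturate at 3, a black dot marks an adjusted p under 0.05, and the rows of Inhba, Inhbb and Grem1 are red and that of Acvr1c blue in the 4 EGCG columns.

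Of the 3 TGF-beta ligands, Tgfb1 rose with EGCG in both depots, while Tgfb2 and Tgfb3 moved in opposite directions in different groups. Tgfb1 (ENSMUSG00000002603.9, chromosome 7, 26472021 to 26490096; all positions are in mm9) encodes the ligand TGF-beta 1. Its level in BAT cells on day 8 was 11.9, 13.7 and 14.9 FPKM in controls and 50.4, 51.4 and 57.3 with EGCG. All 3 treated libraries lay above all 3 controls, and the means differed 3.98-fold (log2 change of 1.92 ± 0.066 SE, adjusted p = 2.70e-10). BAT day 4 cells had 16.1, 15.1 and 17.5 FPKM in controls and 41.0, 37.3 and 42.2 with EGCG (log2 change of 1.27 ± 0.066 SE, adjusted p = 4.26e-08). White cells had 20.8, 19.3 and 20.4 in controls and 33.1, 32.3 and 36.6 with EGCG on day 4, again without overlap. On day 8 they had 15.8, 15.7 and 18.5 and 36.2, 37.0 and 18.3 (log2 change of 1.17 ± 0.066 SE, adjusted p = 3.88e-08). Treated replicates 1 and 2 lay above all controls there. Treated replicate 3, the library in which 5 genes held most reads, lay below replicate 3 of the controls.

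Tgfb3 (ENSMUSG00000021253.6, chromosome 12, 87397694 to 87419991), the third TGF-beta, fell in WAT cells on day 4 from 33.2, 30.3 and 26.1 FPKM to 13.0, 12.3 and 13.3 with EGCG (log2 change of -1.26 ± 0.073 SE, adjusted p = 9.19e-08). In BAT cells it stood at 21.8, 22.8 and 21.0 FPKM in day 4 controls and 32.6, 28.2 and 31.4 with EGCG, and at 31.9, 30.7 and 35.0 and 59.5, 64.5 and 63.2 on day 8. Treated libraries thus lay below controls in WAT and above them in BAT cells, with no overlap on day 4 in either depot. The difference between the depots' EGCG changes was called on both days (day 4 1.69 ± 0.10 SE, adjusted p = 1.32e-06; day 8 1.22 ± 0.10 SE, adjusted p = 5.82e-06). Tgfb2 fell in BAT cells on day 4, from 8.52, 9.34 and 7.28 to 3.19, 3.46 and 3.00 FPKM (log2 change of -1.20 ± 0.11 SE, adjusted p = 3.47e-06). On day 8 it was 2.202, 1.58 and 1.93 in controls and 4.01, 4.55 and 3.96 with EGCG. The change in BAT cells differed between the days (2.07 ± 0.16 SE, adjusted p = 1.00e-06).

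The activin subunits Inhba and Inhbb held the largest log2 increases among the ligand genes in both WAT comparisons and in BAT day 8 cells. In BAT day 4 cells Inhba held the largest, while Inhbb rose by 0.99, less than Bmp6 (1.51) and Tgfb1 (1.27). Inhba encodes the subunit of activin A and Inhbb that of activin B, and Inha pairs with either of them to make inhibins, which oppose activins. Inhba (ENSMUSG00000041324.7, chromosome 13, 16103684 to 16119044) had 8.21, 7.85 and 4.16 FPKM in BAT day 8 controls and 56.0, 61.3 and 40.1 with EGCG. Treated libraries were all above the controls, at a ratio of means of 7.31 (log2 change of 2.72 ± 0.27 SE, adjusted p = 1.78e-06). The increase on the log2 scale was 1.99 and 1.95 in WAT cells on day 4 and day 8 and 2.02 in day 4 BAT cells, with an SE of 0.27 in each. Its control libraries were uneven, with 12.02, 5.40 and 3.70 FPKM in WAT day 8 cells, and replicate 3 was the lowest library of every group.

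Inhbb (ENSMUSG00000037035.5, chromosome 1, 121312042 to 121318825) stood at 7.65, 7.97 and 8.62 FPKM in WAT day 4 controls and 45.0, 41.9 and 48.4 with EGCG, a difference of 5.56-fold (log2 change of 2.33 ± 0.17 SE, adjusted p = 5.96e-07). On day 8 it rose from 7.25, 6.46 and 7.41 to 55.3, 54.1 and 58.7 in BAT cells (log2 change of 2.83 ± 0.17 SE, adjusted p = 2.78e-08). The rise in WAT day 8 cells was 1.95 ± 0.17 SE, adjusted p = 1.38e-06 on the log2 scale. BAT day 4 cells had the smallest rise, from 16.9, 15.1 and 15.2 to 32.9, 32.4 and 34.8 FPKM. The EGCG change there was smaller than in WAT day 4 cells (-1.35 ± 0.24 SE, adjusted p = 0.00197) and than in BAT day 8 cells (difference 1.84 ± 0.24 SE, adjusted p = 6.05e-05). Inha went the other way on day 8. It fell from 4.80, 5.22 and 3.18 to 1.64, 1.59 and 1.30 FPKM in BAT cells (log2 change of -1.20 ± 0.10 SE, adjusted p = 4.21e-07). In WAT cells the values were 5.30, 5.69 and 4.75 in controls and 2.74, 2.26 and 0.927 with EGCG.

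Among the 13 BMP and GDF ligands, 7 were tested. With EGCG, 4 were called higher and 1 lower in WAT day 4, 6 and 0 in WAT day 8, 5 and 1 in BAT day 4 and 5 and 1 in BAT day 8 cells. In the same order, 34.4%, 44.7%, 27.9% and 46.5% of all genes were called higher and 19.3%, 18.9%, 20.6% and 26.1% lower. The gene called lower was Gdf10 (BMP3B) in each of the 3. Bmp6, a ligand of the BMP5, BMP6 and BMP7 subgroup, rose in WAT day 8 cells from 2.67, 2.78 and 3.19 to 8.97, 8.99 and 4.00 FPKM (log2 change of 1.42 ± 0.083 SE, adjusted p = 4.94e-08). In BAT day 4 cells it went from 1.94, 2.51 and 2.72 to 8.596, 7.71 and 8.49 (log2 change of 1.51 ± 0.083 SE, adjusted p = 6.76e-08). Gdf11, a ligand close to myostatin, rose on day 8 to 12.5, 12.9 and 12.4 FPKM in BAT cells from 2.66, 2.86 and 2.40 (log2 change of 1.86 ± 0.071 SE, adjusted p = 5.97e-10). Its rise in WAT cells was 1.33 on the log2 scale. Myostatin itself was at 0 FPKM in 16 of 24 libraries and at most 0.0592 in the others. Gdf15, a distant family member that signals through the receptor GFRAL and is known as a stress-induced hormone, also rose. It went from 4.74, 4.80 and 5.45 to 20.0, 16.5 and 24.1 FPKM in WAT day 4 cells (log2 change of 1.73 ± 0.19 SE, adjusted p = 1.34e-05). Day 8 BAT cells went from 4.97, 5.38 and 6.67 to 18.7, 21.1 and 27.6 (log2 change of 1.76 ± 0.19 SE, adjusted p = 3.95e-06). Treated libraries of both pairs of groups lay above the controls without overlap.

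BMP ligands at low levels also differed between groups. Bmp4, a ligand known to commit precursors to the adipocyte lineage, stood at 0.915, 0.916 and 1.10 FPKM in BAT day 4 controls and 4.00, 4.49 and 3.84 with EGCG. The day 8 controls, at 2.79, 2.65 and 3.02, and treated cells, at 2.67, 2.86 and 2.86, overlapped. Gdf6 was under 1 FPKM in every library of 6 groups and reached 2.70, 2.83 and 1.17 in WAT and 3.85, 4.39 and 4.26 in BAT day 8 cells with EGCG. Bmp7, a ligand known to promote brown fat formation, was at 0.334, 0.229 and 0.183 FPKM in WAT day 4 controls and at 0.0135, 0.00606 and 0 in BAT day 4 controls. Bmp8b, a ligand known from mature brown fat, did not exceed 0.144 FPKM in any library. Gdf10 fell with EGCG in BAT day 4 cells from 47.9, 48.1 and 49.6 to 19.8, 23.1 and 25.0 FPKM (log2 change of -1.13 ± 0.087 SE, adjusted p = 8.57e-07).

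**Figure D2:**
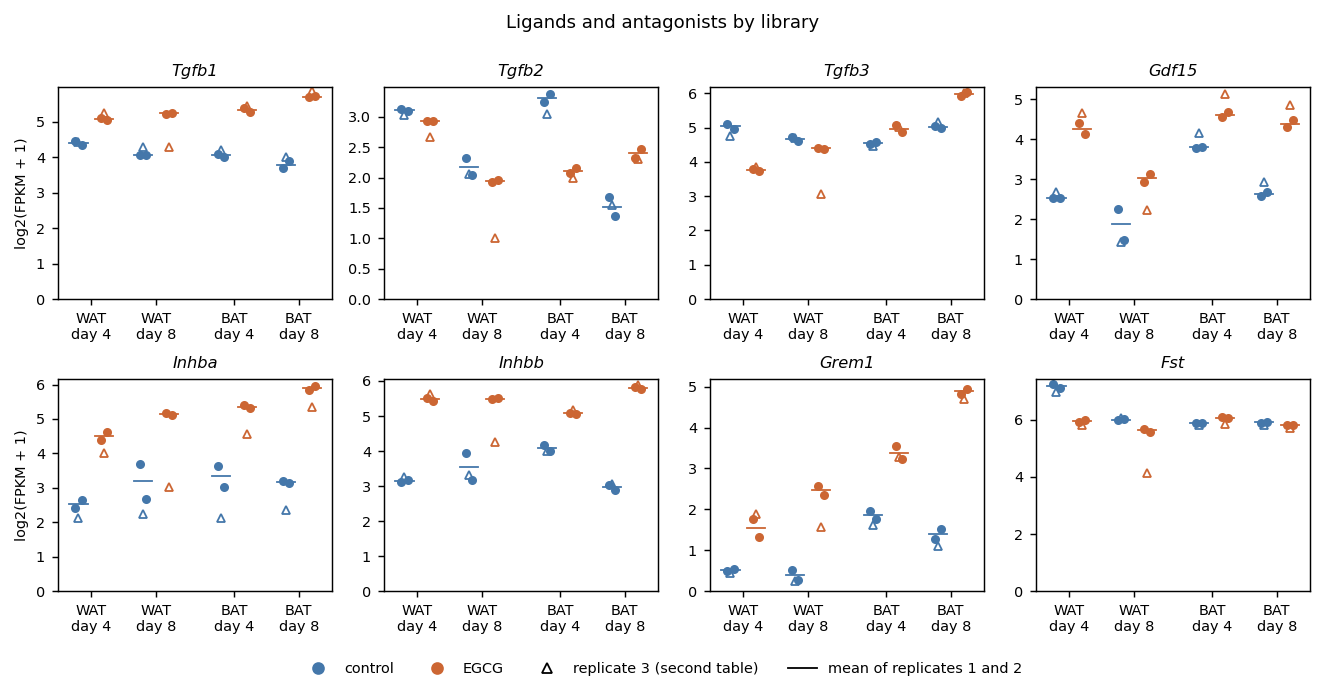
log2(FPKM + 1) of 6 ligand genes and the antagonists Grem1 and Fst in each library, by depot and day. Blue is control and orange EGCG, filled circles are replicates 1 and 2, open triangles replicate 3 of the separately scaled table, and lines the mean of replicates 1 and 2. In Tgfb1, Inhba, Inhbb and Grem1 the orange circles lie above the blue ones in all 4 pairs of groups, and the orange triangle of WAT day 8 lies below its circles in every panel.

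Of the 12 receptor genes, the type I receptor Acvr1c changed most, and it was the receptor called lower with EGCG in all 4 comparisons. Acvr1c (ENSMUSG00000026834.7, chromosome 2, 58119864 to 58210306) encodes ALK7, a receptor for activin B and several GDF ligands that is known from mature adipocytes. Its level was 10.8, 9.18 and 7.49 FPKM in BAT day 8 controls and 0.0303, 0.0310 and 0.0759 with EGCG, or 4599, 3317 and 1212 reads against 13, 15 and 12. The log2 change was -3.41 ± 0.11 SE, adjusted p = 1.40e-10. WAT day 8 controls had 1597, 976 and 370 reads of it (3.51, 2.65 and 2.44 FPKM) and treated cells 14, 0 and 0. WAT day 4 controls had 629, 492 and 225 reads and treated cells 5, 5 and 8, and BAT day 4 cells fell from 4.35, 4.87 and 4.44 to 0.4998, 0.440 and 0.397 FPKM. No treated library reached the level of any control of its depot and day. The summed level of the 9 adipocyte markers moved the same way in the same libraries, and its part in this result was not tested. The depot difference of the day 8 change (-1.41 ± 0.15 SE, adjusted p = 3.40e-05) turned to 0.44 (adjusted p = 0.833) when recovered reads were fitted with limma voom.

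Most other receptors were higher with EGCG on day 8, when 9 of 12 were called higher and 1 lower in WAT cells (44.7% and 18.9% of all genes) and 7 and 2 in BAT cells (46.5% and 26.1%). With median-ratio scaling Tgfbr2 and Acvr2a were no longer called in WAT cells on day 8. Tgfbr1 (ALK5), the type I receptor of TGF-beta, was at 9.23, 10.4 and 9.21 FPKM in BAT day 8 controls and 30.3, 28.8 and 26.3 with EGCG (log2 change of 1.50 ± 0.099 SE, adjusted p = 5.94e-08). Its rise in WAT day 8 cells was 1.35 ± 0.099 SE, adjusted p = 3.23e-07. Its partner Tgfbr2, the type II receptor, was far more abundant and did not separate by treatment in BAT day 8 cells, at 63.2, 61.0 and 59.6 FPKM in controls and 60.1, 58.6 and 54.6 with EGCG. The co-receptor Tgfbr3 (betaglycan) behaved likewise, at 57.5, 52.7 and 48.2 and 56.2, 52.2 and 47.5. Acvr1 (ALK2), a type I receptor of BMP and activin, rose in BAT day 8 cells from 12.6, 13.5 and 13.9 to 31.3, 30.7 and 30.4 FPKM (log2 change of 1.19 ± 0.081 SE, adjusted p = 7.77e-08). Bmpr1b, a BMP type I receptor at low level, went from 0.241, 0.175 and 0.159 to 3.15, 3.00 and 2.75 FPKM in the same cells, and the more abundant Bmpr1a from 20.9, 21.5 and 19.5 to 29.4, 28.2 and 24.04. Acvr2a, an activin type II receptor, fell in WAT day 4 cells from 25.4, 23.8 and 20.7 to 10.8, 12.5 and 10.2 FPKM (log2 change of -1.02 ± 0.064 SE, adjusted p = 1.74e-07). Its change differed between the days in WAT cells (1.37 ± 0.091 SE, adjusted p = 7.31e-07).

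Acvrl1 (ALK1), a type I receptor best known from endothelial cells, rose in BAT day 4 cells from 4.09, 4.87 and 4.64 to 14.0, 13.6 and 13.2 FPKM with EGCG (log2 change of 1.43 ± 0.067 SE, adjusted p = 1.86e-08). Treated libraries lay above controls in the other 3 pairs of groups too, apart from replicate 3 of WAT day 8 cells. The summed level of 5 endothelial markers was 9.64 to 12.03 FPKM in the same controls and 31.0 to 34.2 with EGCG. All 5 were called higher (27.9% of all genes). The sum lay at 14.9 to 15.6 in BAT day 8 controls and 28.6 to 30.0 with EGCG. In WAT cells it was 13.5 to 15.0 and 32.3 to 33.8 on day 4, with 4 of 5 called higher (34.4% of all genes). On day 8 it was 20.5 to 22.1 and 27.3 to 27.5, with 3 called higher (44.7%). There the means of Pecam1 (7.54 to 6.62 FPKM) and Tie1 (1.91 to 1.58) were lower with EGCG, neither called. None of the 5 was at or below 3 reads in any group, and their part in the result was not tested.

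All SMAD genes were tested. In BAT day 8 cells 8 of 8 were called higher with EGCG, against 46.5% of all genes. Their median log2 change was 0.45 against 0.17 over all genes, although Smad4 changed sign and Smad5 lost its call with median-ratio scaling. The receptor-activated Smad3, a transducer of TGF-beta and activin, rose from 5.85, 5.77 and 5.18 to 16.7, 16.7 and 14.7 FPKM there (log2 change of 1.38 ± 0.092 SE, adjusted p = 6.45e-08). Smad2, which shares that role, went from 13.9, 14.1 and 12.2 to 18.3, 19.5 and 19.1. The common partner Smad4 varied little, with group means of 24.6 to 31.2 FPKM. Smad1, a transducer of BMP, lay between 7.34 and 11.5 FPKM in control replicates 1 and 2 and between 12.1 and 17.6 in treated ones. These ranges did not overlap. Smad5 and Smad9, the other BMP transducers, had group means of at most 14.7 and 1.66 FPKM.

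On day 4 the EGCG change of the inhibitory SMADs differed between depots. On day 8 the depot differences of the 8 SMAD genes lay between -0.18 and 0.58 on the log2 scale. Smad7, which TGF-beta itself is known to induce, rose in BAT day 4 cells from 4.77, 5.51 and 4.69 to 19.3, 16.6 and 15.7 FPKM (log2 change of 1.63 ± 0.087 SE, adjusted p = 5.35e-08). The day 8 rise was from 5.09, 5.85 and 5.57 to 16.5, 15.9 and 16.5 (log2 change of 1.41 ± 0.087 SE, adjusted p = 3.12e-08). In WAT day 4 cells it was 6.65, 6.16 and 5.90 in controls and 9.23, 8.82 and 10.1 with EGCG, a smaller change than in BAT (difference 1.19 ± 0.12 SE, adjusted p = 4.44e-05). Smad6, the inhibitor of BMP signalling, went down in WAT day 4 cells, from 3.68, 3.50 and 4.12 to 2.34, 2.17 and 2.95 FPKM. It went up in BAT day 4 cells, from 8.85, 8.95 and 9.56 to 14.5, 14.1 and 13.0. Neither pair of groups overlapped, and the depots' changes differed by 1.13 ± 0.099 SE, adjusted p = 1.35e-05.

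**Figure D3:**
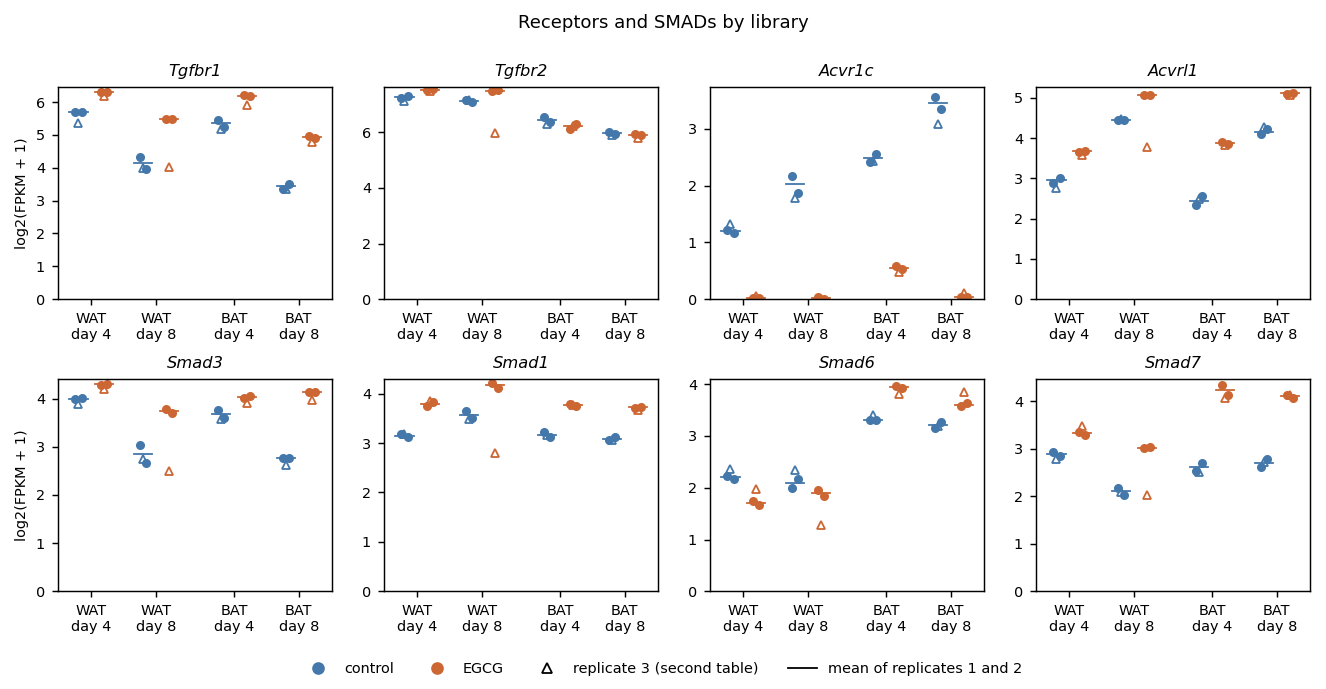
log2(FPKM + 1) of 4 receptor genes (Tgfbr1, Tgfbr2, Acvr1c, Acvrl1) and 4 SMAD genes in each library, by depot and day, with control in blue and EGCG in orange. Filled circles are replicates 1 and 2, open triangles replicate 3 of the separately scaled table, and lines the mean of replicates 1 and 2. Acvr1c lies close to 0 in the treated groups except BAT day 4, and Smad6 is higher in BAT than in WAT cells with either treatment.

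Antagonists bind ligands outside the cell and keep them from the receptors. Grem1 (ENSMUSG00000074934.3, chromosome 2, 113586321 to 113598803), is a BMP antagonist and had the largest fold increase of the class. It rose from 1.42, 1.89 and 1.16 FPKM in BAT day 8 controls to 27.4, 29.8 and 24.9 with EGCG, or 17.3-fold (log2 change of 3.48 ± 0.16 SE, adjusted p = 2.86e-09). BAT day 4 cells went from 2.87, 2.41 and 2.09 to 10.7, 8.35 and 8.77 (log2 change of 1.52 ± 0.16 SE, adjusted p = 1.09e-05). WAT day 8 cells went from 0.441, 0.216 and 0.189 to 4.99, 4.13 and 1.96. Treated libraries were above the controls in each of the 4 pairs of groups. The day 8 change was larger in BAT than in WAT cells (1.42 ± 0.23 SE, adjusted p = 0.000522) on this scale, but not called with a pseudocount of 0.1 (0.56, adjusted p = 0.273). Fst (follistatin), which neutralises activins, went the other way in WAT day 4 cells, from 151, 138 and 124 to 59.9, 62.5 and 55.7 FPKM (log2 change of -1.23 ± 0.051 SE, adjusted p = 6.78e-09). BAT day 4 cells had 58.0, 57.4 and 55.2 in controls and 67.6, 64.9 and 56.8 with EGCG. WAT day 4 controls were the highest of all 8 groups, and the change differed between the depots (1.42 ± 0.072 SE, adjusted p = 5.43e-07).

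Fstl3, a relative of follistatin that also binds activins, was at 1.87, 1.34 and 1.69 FPKM in WAT day 4 controls and 5.32, 4.32 and 6.83 with EGCG, and at 1.36, 1.80 and 1.67 and 5.19, 4.26 and 5.78 in BAT cells. Chrd (chordin), an antagonist of BMP2 and BMP4, went up with EGCG in WAT day 4 cells, from 2.03, 1.67 and 2.06 to 4.27, 3.60 and 4.45. On day 8 it went down, from 5.71, 7.32 and 7.92 to 2.65, 2.75 and 1.09 (log2 change of -1.01 ± 0.12 SE, adjusted p = 1.27e-05). The WAT groups did not overlap on either day, and the change differed between the days (-1.81 ± 0.17 SE, adjusted p = 6.86e-06). Nog (noggin) never exceeded 2.45 FPKM. Bmper, a secreted BMP-binding protein, was 139, 134 and 129 in BAT day 4 controls and 106, 111 and 111 with EGCG. On day 8 the values were 33.4, 31.9 and 33.8 and 63.7, 60.0 and 59.5, and the change in BAT cells differed between the days (1.23 ± 0.090 SE, adjusted p = 7.90e-07). Bambi, a receptor without kinase that blocks signalling, had 0.883, 0.704 and 0.797 and 1.05, 1.11 and 1.23 FPKM in BAT day 8 control and treated cells.

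Latent TGF-beta binding proteins tether the inactive ligand to the matrix. Ltbp2, a family member that is known not to bind latent TGF-beta itself, rose in BAT cells from 16.5, 19.9 and 18.2 to 75.1, 60.7 and 59.8 FPKM on day 4 (log2 change of 1.84 ± 0.12 SE, adjusted p = 1.80e-07). The later rise, on day 8, was from 35.3, 42.1 and 48.4 to 127, 134 and 136 (log2 change of 1.73 ± 0.12 SE, adjusted p = 6.74e-08). WAT day 4 cells had 4.72, 5.56 and 3.84 in controls and 4.06, 3.80 and 4.21 with EGCG, and the depots' changes differed by 2.16 ± 0.16 SE, adjusted p = 4.96e-06 on day 4. Ltbp1 rose in BAT day 4 cells from 1.48, 2.13 and 2.07 to 7.08, 5.61 and 5.48 (log2 change of 1.39 ± 0.14 SE, adjusted p = 5.89e-06). Ltbp4 fell in WAT day 8 cells from 15.2, 19.7 and 19.7 to 7.64, 8.04 and 3.38 FPKM (log2 change of -1.05 ± 0.11 SE, adjusted p = 5.09e-06). Ltbp3 had 56.8, 57.9 and 61.0 and 29.7, 31.0 and 30.4 in BAT day 8 control and treated cells. Bmp1, which despite its name is a protease that trims procollagen and frees latent TGF-beta, rose in WAT day 4 cells from 154, 163 and 157 to 357, 321 and 366 (log2 change of 1.09 ± 0.072 SE, adjusted p = 2.47e-07). BAT day 8 cells went from 109, 114 and 125 to 239, 224 and 239 (log2 change of 1.05 ± 0.072 SE, adjusted p = 8.38e-08). The matrix protein Tgfbi, named for its induction by TGF-beta, stayed between 5.86 and 16.2 FPKM across the group means. Its BAT day 8 values were 12.2, 13.0 and 13.6 in controls and 13.5, 11.6 and 13.8 with EGCG.

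The Id proteins lack a DNA-binding domain and block basic helix-loop-helix factors, and Id1, Id2 and Id3 are known as direct targets of BMP-activated SMADs. The bases before the start sites of Id2, Id3 and Id4 are shown because these genes differ in how they moved with day and depot (RefSeq, GRCm38.p6, 250 bases, 5′ to 3′ on the gene's strand). Id1 is left out because the set of start sites used held no entry for it. Capitals mark GGCGCC, a palindrome that BMP-activated SMADs are known to bind. Positions are chr12:25096093-25096342 (minus strand) for Id2, chr4:136143572-136143821 (plus strand) for Id3 and chr13:48260866-48261115 (plus strand) for Id4.
Id2: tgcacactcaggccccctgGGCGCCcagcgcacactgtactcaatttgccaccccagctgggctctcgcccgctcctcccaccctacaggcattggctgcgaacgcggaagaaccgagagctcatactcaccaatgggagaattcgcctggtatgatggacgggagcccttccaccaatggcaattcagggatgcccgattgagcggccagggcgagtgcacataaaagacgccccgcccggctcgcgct
Id3: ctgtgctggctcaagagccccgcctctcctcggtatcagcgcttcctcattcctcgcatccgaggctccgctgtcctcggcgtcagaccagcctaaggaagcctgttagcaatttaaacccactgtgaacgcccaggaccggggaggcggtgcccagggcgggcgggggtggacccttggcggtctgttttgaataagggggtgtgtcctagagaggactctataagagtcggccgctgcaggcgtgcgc
Id4: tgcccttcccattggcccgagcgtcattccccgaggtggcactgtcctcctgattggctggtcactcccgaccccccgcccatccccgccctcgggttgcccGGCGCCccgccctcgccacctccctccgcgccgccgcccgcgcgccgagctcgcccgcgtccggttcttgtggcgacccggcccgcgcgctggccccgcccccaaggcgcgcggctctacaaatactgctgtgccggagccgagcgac
These letters were found in the windows of Id2 and Id4 but not in that of Id3. GGCGCC reads the same on both strands and was present in 9.59% of 32851 windows of the same length in the table, and in 9 of the 41 windows of genes of the list that were matched.

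With EGCG, Id1, Id2 and Id3 were called higher on day 4 in both depots, and Id4 was called lower in all 4 comparisons. On day 8 Id3 was called lower in both depots. Id1 was called higher in WAT day 8 cells (log2 change of 0.90) and was not called in BAT day 8 cells. Id3 (ENSMUSG00000007872.3, chromosome 4, 135699412 to 135701670) rose in BAT day 4 cells from 79.7, 78.7 and 91.5 to 188, 173 and 182 FPKM (log2 change of 1.17 ± 0.076 SE, adjusted p = 2.25e-07). On day 8 it stood at 154, 165 and 187 in controls and 137, 135 and 163 with EGCG. Treated libraries lay above all controls on day 4, and on day 8 the groups overlapped only through replicate 3. The change differed between the days in BAT cells (-1.40 ± 0.11 SE, adjusted p = 1.15e-06) and in WAT cells (-1.04 ± 0.11 SE, adjusted p = 1.75e-05). WAT cells had 29.2, 29.4 and 34.4 in controls and 55.9, 45.7 and 60.6 with EGCG on day 4 and 69.2, 70.8 and 75.4 and 59.6, 56.2 and 25.0 on day 8. Id2 followed the same order in BAT cells, at 32.7, 31.8 and 32.1 FPKM in controls and 55.2, 52.7 and 51.4 with EGCG on day 4 and 22.4, 25.7 and 24.2 and 19.5, 20.2 and 20.2 on day 8. Id1 had 34.5, 38.6 and 49.9 and 57.9, 54.1 and 59.3 FPKM in BAT day 4 control and treated cells and 39.2, 37.2 and 43.5 and 44.0, 43.6 and 47.5 on day 8. The calls of Id1 and Id2 in WAT day 4 cells were lost with median-ratio scaling. Id4 fell in WAT day 4 cells from 16.6, 14.9 and 15.2 to 3.35, 3.95 and 3.75 FPKM, or 4.31-fold (log2 change of -1.85 ± 0.10 SE, adjusted p = 6.59e-08). In BAT day 4 cells it was 13.4, 15.0 and 14.9 and 9.95, 10.3 and 10.2. The fall was larger in WAT cells (difference 1.40 ± 0.15 SE, adjusted p = 4.60e-05).

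**Figure D4:**
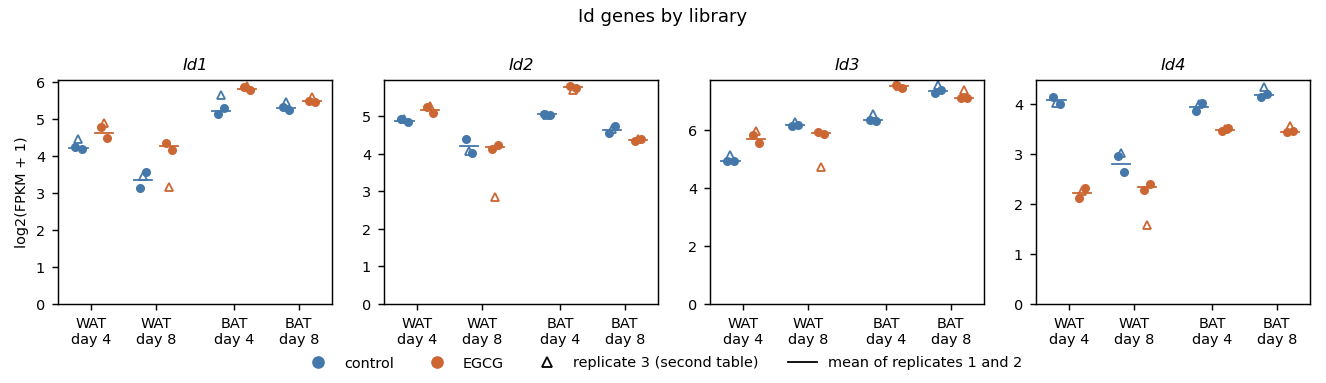
log2(FPKM + 1) of the 4 Id genes in each library, by depot and day, with control in blue and EGCG in orange. Filled circles are replicates 1 and 2, open triangles replicate 3 of the separately scaled table, and lines the mean of replicates 1 and 2. Id1 and Id3 are higher in BAT than in WAT cells in each pair of groups, and Id4 is highest in controls of WAT day 4 and of BAT cells on both days.

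Whether the EGCG change differed between depots was tested as the difference of the 2 changes. On day 4, 32 of the 51 genes were called (28.1% of all genes), 21 with the higher value in BAT, and for 9 the changes differed at least 2-fold (3.82% of all genes). On day 8, 27 were called (39.2%), 18 with the higher value in BAT and 9 with the lower (19.4% and 19.7% of all genes), and 4 at least 2-fold (6.06%). Median-ratio scaling turned the day 4 split of all called genes from 1689 higher and 2270 lower to 2262 and 1483. For the list the day 4 split was then 21 and 9. The day 8 minus day 4 difference of the EGCG change was called for 33 genes in WAT (49.4% of all genes; 26 higher, 7 lower), 8 of them at least 2-fold (8.07%). In BAT cells it was called for 34 (55.4%), 20 higher and 14 lower, 11 of them at least 2-fold (10.2%). Over all genes, 29.7% were called higher and 19.7% lower in WAT, and 34.7% and 20.6% in BAT cells. With median-ratio scaling the splits between days were 22 higher and 10 lower in WAT and 17 and 18 in BAT cells. The direction was the same in replicate 3 for 32 of the 32 genes called on day 4 and for 20 of the 27 on day 8. After median-ratio scaling of that table it was so for 31 of 32 and 27 of 27. Over all called genes the shares were 93.5% and 58.0% before that scaling and 92.7% and 94.3% after it.

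**Figure D5:**
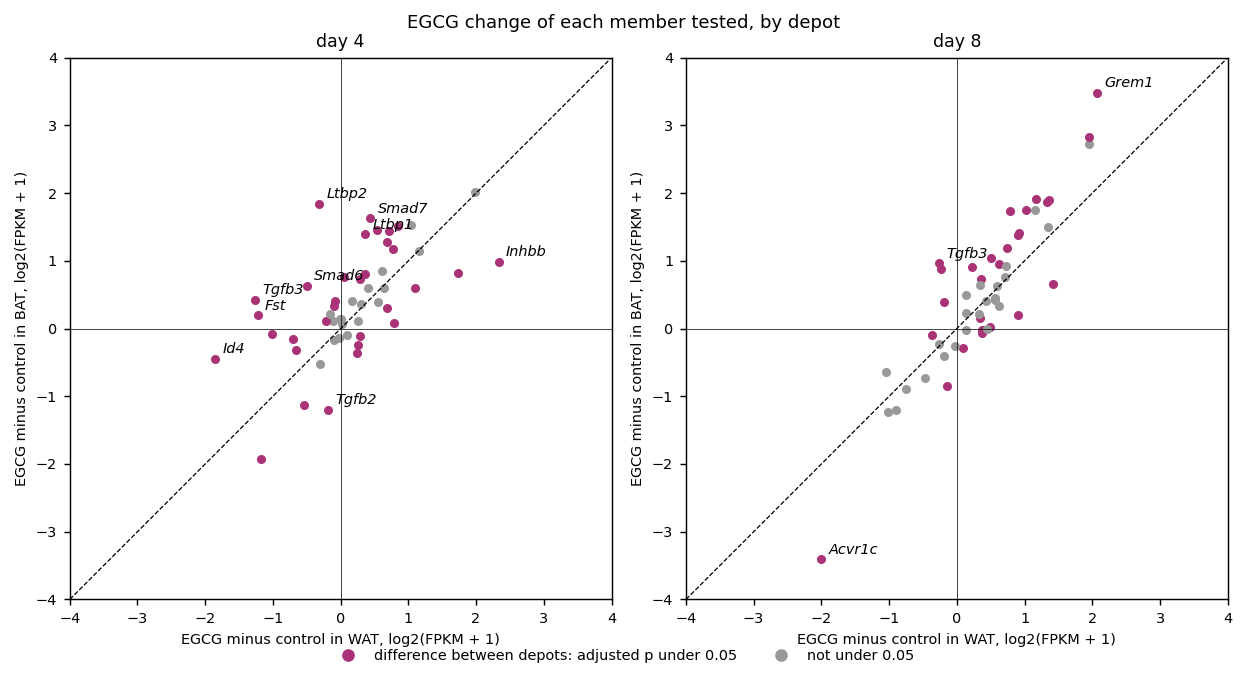
EGCG minus control in WAT cells (horizontal axis) and in BAT cells (vertical axis) on day 4 and day 8, as differences in log2(FPKM + 1) of replicates 1 and 2, with 1 point for each of the 51 genes tested and a dashed line where the depots are equal. Purple points have an adjusted p under 0.05 for the difference between depots, and names mark those of at least 1 on the log2 scale in genes with a group mean of at least 5 FPKM. On day 4 Tgfb3, Fst, Ltbp2 and Smad6 lie below 0 in WAT and above 0 in BAT cells.

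Controls on day 8 were compared with those on day 4 to describe the pathway during differentiation itself. These comparisons share their control libraries with those of EGCG. In WAT cells 37 of 51 genes were called, 12 higher and 25 lower on day 8 (61.0% of all genes, 27.7% higher and 33.2% lower). Their median log2 change was -0.15 against -0.03, and 14 changed at least 2-fold (10.2%). BAT cells also had 37, 15 higher and 22 lower (69.2% of all genes, 28.7% higher and 40.4% lower), 16 of them at least 2-fold (14.0%). Their median was -0.0047 against -0.10, and with median-ratio scaling 24 higher and 17 lower. Tgfbr1 fell from 42.4, 37.1 and 35.1 to 9.23, 10.4 and 9.21 FPKM in BAT (log2 change of -1.91 ± 0.099 SE, adjusted p = 1.14e-08). It went from 50.7, 50.7 and 39.9 to 19.1, 14.5 and 14.9 in WAT cells (log2 change of -1.55 ± 0.099 SE, adjusted p = 1.20e-07). Tgfbr3 fell by 1.64 on the log2 scale in BAT and by 1.02 in WAT controls, from 182, 166 and 151 and 215, 228 and 189 FPKM on day 4. Receptors did not fall as a class, since Acvrl1 rose from 4.09, 4.87 and 4.64 to 16.1, 17.7 and 18.5 in BAT (log2 change of 1.71 ± 0.067 SE, adjusted p = 1.44e-09) and by 1.50 in WAT cells. Acvr1c went from 1.34, 1.25 and 1.50 to 3.51, 2.65 and 2.44 FPKM in WAT controls and from 4.35, 4.87 and 4.44 to 10.8, 9.18 and 7.49 in BAT controls.

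Several secreted regulators fell sharply between the days. Bmper went from 127, 127 and 124 to 49.9, 42.8 and 46.5 FPKM in WAT controls (log2 change of -1.44 ± 0.063 SE, adjusted p = 8.35e-09) and fell by 2.03 on the log2 scale in BAT controls. Gdf10 fell from 190.1, 195 and 210.0 to 78.8, 64.7 and 74.9 in WAT (log2 change of -1.42 ± 0.087 SE, adjusted p = 9.25e-08). Its fall was from 47.9, 48.1 and 49.6 to 9.40, 9.09 and 9.63 in BAT cells (log2 change of -2.26 ± 0.087 SE, adjusted p = 1.43e-09). No day 8 library of these genes reached a day 4 library of its depot. Tgfb2 fell by 1.79 and Bambi by 1.80 on the log2 scale in BAT controls, and Fst by 1.19 in WAT controls. Fstl3 rose from 1.36, 1.80 and 1.67 to 8.13, 6.90 and 10.8 FPKM in BAT controls (log2 change of 1.72 ± 0.17 SE, adjusted p = 2.62e-06) and Ltbp2 from 4.72, 5.56 and 3.84 to 23.6, 21.8 and 22.5 in WAT controls (log2 change of 1.95 ± 0.12 SE, adjusted p = 6.98e-08). Ltbp4 had log2 changes of 1.46 in WAT and 1.59 in BAT controls. Of the Id genes, Id3 rose in both depots (log2 change 1.23 in WAT and 1.002 in BAT), and Id4 fell in WAT cells (-1.26), from 16.6, 14.9 and 15.2 to 6.78, 5.24 and 7.12 FPKM.

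BAT and WAT controls were compared on each day to describe how the depots differ. On day 4, 33 of 51 genes were called (55.8% of all genes), 17 higher and 16 lower in BAT, with 8 at least 2-fold (4.48%). Over all genes, 41.4% were called higher and 14.4% lower in BAT cells on that day. On day 8, 32 were called (53.6%), 16 higher and 16 lower (31.6% and 22.0% of all genes), with 8 at least 2-fold (7.09%). The median log2 difference of all genes, 0.15 on day 4, falls to 0.01 with median-ratio scaling. With that scaling 14 genes of the list were called higher and 19 lower on day 4, and 3408 and 3324 of all genes. Gdf10 (ENSMUSG00000021943.5, chromosome 14, 34736773 to 34749700) was the gene with the largest difference, at 78.8, 64.7 and 74.9 FPKM in WAT and 9.40, 9.09 and 9.63 in BAT day 8 controls (log2 difference of -2.82 ± 0.087 SE, adjusted p = 2.00e-09). WAT cells also had more Tgfbr2 on day 8, at 144, 135 and 142 against 63.2, 61.0 and 59.6 (log2 difference of -1.15 ± 0.067 SE, adjusted p = 9.59e-08). They had more Fst on day 4 (log2 difference of -1.31 ± 0.051 SE, adjusted p = 2.01e-08). Higher in BAT controls were Smad6, at 7.89, 8.58 and 8.13 FPKM against 3.00, 3.51 and 4.08 on day 8 (log2 difference of 1.12 ± 0.070 SE, adjusted p = 1.58e-07), and Acvr1c on day 8 (1.43). On day 4 Ltbp2 and Gdf15 were also higher (1.64 and 1.26).

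The Id genes were higher in BAT cells as a class on day 8, when 4 of 4 were called higher, against 31.6% of all genes, with a median of 1.27 against 0.05. Id1 stood at 7.85, 10.9 and 10.1 FPKM in WAT and 39.2, 37.2 and 43.5 in BAT day 8 controls, a 4.07-fold difference with no overlap (log2 difference of 1.93 ± 0.13 SE, adjusted p = 2.57e-07). Id3 differed by 1.18 ± 0.076 SE, adjusted p = 2.06e-07 on day 8 and by 1.40 ± 0.076 SE, adjusted p = 1.34e-07 on day 4. Id4 overlapped between the depots on day 4, at 16.6, 14.9 and 15.2 and 13.4, 15.0 and 14.9 FPKM. It was higher in BAT cells on day 8, at 6.78, 5.24 and 7.12 and 16.6, 17.4 and 19.1 (log2 difference of 1.37 ± 0.10 SE, adjusted p = 6.54e-07). The direction of each called gene of the list in the depot comparisons was the same in replicate 3 as deposited. After median-ratio scaling it was the same for 32 of 33 on day 4 and 32 of 32 on day 8. Over all called genes the shares were 94.9% and 94.5% as deposited and 89.6% and 94.1% after scaling.

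Other genes of the pathway were counted from lists of 44 further components, 15 genes that TGF-beta is known to induce and 7 that BMP is known to induce. Of 28 further components tested, 12 rose and 5 fell with EGCG in WAT day 4, 19 and 2 in WAT day 8, 18 and 4 in BAT day 4 and 22 and 4 in BAT day 8 cells. The shares of all genes called in these comparisons, in the same order, were 34.4%, 44.7%, 27.9% and 46.5% higher and 19.3%, 18.9%, 20.6% and 26.1% lower. The median log2 changes of these components were, in this order, 0.13, 0.66, 0.45 and 0.73, against 0.09, 0.17, 0.03 and 0.17 over all genes. Lrrc32 (GARP), which holds latent TGF-beta at the cell surface, rose in BAT day 8 cells from 21.7 ± 0.974 to 156 ± 3.95 FPKM (SD, n = 2; log2 change 2.79). Chordin-like 1 (Chrdl1) fell from 15.98 ± 0.443 to 0.684 ± 0.0452 FPKM (log2 change -3.33). The TGF-beta feedback gene Pmepa1 rose in BAT day 8 cells by 2.27 on the log2 scale.

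The 15 genes that TGF-beta is known to induce were all tested. With EGCG, 6 rose and 8 fell in WAT day 4 cells, 9 and 5 in WAT day 8, 11 and 3 in BAT day 4, and 12 and 3 in BAT day 8 cells. Of all genes, 34.4%, 44.7%, 27.9% and 46.5% were called higher and 19.3%, 18.9%, 20.6% and 26.1% lower in these comparisons. The medians of the 15 genes were -0.73, 0.56, 0.96 and 1.07 on the log2 scale, against 0.09, 0.17, 0.03 and 0.17 over all genes. Smooth muscle actin (Acta2) fell in WAT day 4 cells (log2 change of -1.19 ± 0.18 SE, adjusted p = 0.000148) and rose in BAT day 4 cells, from 54.3 ± 9.62 to 402 ± 63.7 FPKM (SD, n = 2; 2.87 ± 0.18 SE, adjusted p = 1.43e-07). The difference between the depots was 4.06 ± 0.25 SE, adjusted p = 1.32e-06, and that of the connective tissue growth factor gene Ctgf 3.72 ± 0.26 SE, adjusted p = 3.23e-06. Acta2, Tagln and Cnn1 are also 3 of the 5 smooth muscle and myofibroblast markers. The summed level of these 5 was 160.1 to 186 FPKM in WAT day 4 controls, 76.7 to 79.1 with EGCG, 96.9 to 124 in BAT day 4 controls and 703 to 874 with EGCG. The collagen genes Col1a1 and Col1a2 fell in WAT day 8 cells (-1.50 and -1.55 on the log2 scale).

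Of the 7 genes that BMP is known to induce, 4 were tested. With EGCG, 1 rose and 1 fell in WAT cells on day 4, 1 and 1 on day 8, and 2 and 1 in BAT cells on day 4 and 2 and 0 on day 8, with medians of -0.03, 0.02, 0.33 and 0.44. In these comparisons 53.7%, 63.6%, 48.5% and 72.6% of all genes were called in either direction, with medians of 0.09, 0.17, 0.03 and 0.17. The osteoblast factor Runx2 rose in BAT day 8 cells (1.72 on the log2 scale) and in WAT day 8 cells (1.18), Atoh8 rose in BAT day 4 cells (1.19), and Msx1 fell in WAT day 4 cells (-1.26). In controls Atoh8 was higher in BAT than in WAT cells on both days (1.32 and 1.23).

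Markers of other cells that such cultures can hold also moved with EGCG. The sum of 6 macrophage markers was 73.7 to 78.7 FPKM in WAT day 4 controls and 191 to 196 with EGCG, and 171 to 181 and 373 to 415 in BAT cells. The day 8 sums were 111 to 132 in WAT controls and 56.5 to 59.9 with EGCG, and 115 to 116 and 59.1 to 60.2 in BAT cells. Macrophage markers were thus higher with EGCG on day 4 (5 of 6 called in WAT and 4 of 6 in BAT cells) and lower on day 8 (6 of 6 and 5 of 6). Of 3 Schwann cell markers 2 were called higher with EGCG in each comparison and 1 lower in each but WAT day 4, with a sum of 18.4 to 18.6 FPKM in BAT day 8 controls and 39.4 to 42.7 with EGCG. Mesothelial markers summed to 7.50 to 8.97 FPKM in WAT day 4 controls and 17.5 to 29.2 with EGCG. Of the 4, Krt19 and Msln were tested, and both were called higher in each comparison. Upk3b was at or below 3 reads in every group. Wt1, not tested, had 0.578 ± 0.213 FPKM in WAT day 8 controls and 0.189 ± 0.0145 with EGCG, and 0.776 ± 0.0848 and 0.0697 ± 0.0381 in BAT day 8 cells (SD, n = 2). Skeletal muscle markers summed to 73.0 to 73.5 and 127 to 130.2 FPKM in WAT day 4 control and treated cells. Of the 6, 5 were tested, and all 5 were called higher there. On day 8, 2 were called higher in WAT cells and 1 lower in BAT cells, and none was called higher in BAT cells on either day. Of 5 progenitor markers 4 were tested, and on day 8 with EGCG 4 were called lower in WAT and 3 in BAT cells. The sum was 1070.1 to 1221 FPKM in WAT day 8 controls and 640.0 to 653 with EGCG. Ly6a held most of it, at 944 ± 134 and 514 ± 11.9 (SD, n = 2). Dpp4, not tested, went from 0.319 ± 0.00268 to 0.876 ± 0.108 there. Pdgfra went from 59.2 ± 0.0508 to 62.0 ± 1.63 in BAT day 8 cells. On WAT day 4 the sum was 223 to 253 in controls and 439 to 441 with EGCG. In that comparison 1 marker was called higher and 2 lower. In WAT day 4 cells, 3 of 3 proliferation markers were called lower, from a sum of 39.3 to 39.7 to one of 27.4 to 29.4. Of all genes, 34.4%, 44.7%, 27.9% and 46.5% were called higher with EGCG and 19.3%, 18.9%, 20.6% and 26.1% lower. These shares are in the order WAT day 4, WAT day 8, BAT day 4 and BAT day 8. The part of these cell types in the changes above was not tested.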

How the data were processed

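Reads had been checked with FastQC (version 0.11.9), aligned with HISAT2 (version 2.2.0) to mm9 and counted with HTSeq (version 0.11), per the submitters' processing notes. The authors deposited FPKM values for 37310 genes in 2 separately scaled tables, one with replicates 1 and 2 of the 8 groups and one with replicate 3. The counting strand and the separate preparation of replicates are not given in the sources used here. The genes and lists were chosen with earlier results of these data known. Symbols were matched through GENCODE vM1, in mm9 coordinates.

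Values were taken as log2(FPKM + 1), so fold changes of low genes are understated. Genes with at least 1 FPKM in at least 2 of the 16 libraries of replicates 1 and 2 (14095) were fitted with limma (version 3.58.1 in R 4.3.3), with 1 mean per group, a mean-variance trend and 12 contrasts, each adjusted by Benjamini-Hochberg. FPKM values gave whole reads for all genes within 0.01 of a read, from which depths and read counts were recovered. A log2 change with its SE and adjusted p is given for the genes of the list with an adjusted p under 0.05, a change of at least 1 and a group mean of at least 5 FPKM. Further lists are given by counts and at most 6 genes per comparison. The fit was tested on simulated data. Alternatives were another pseudocount, filter, scaling and replicate block, leaving out each library, and limma voom on recovered reads.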

Additional observations from a re-analysis of the deposited data

Results flagged for a closer look

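The change with EGCG differed between depots or days by at least 1 on the log2 scale in 26 results, each by a test of the difference itself (limma, adjusted p = 0.00257 at most). All values are differences of log2 changes from replicates 1 and 2. On day 4 the change in BAT minus that in WAT cells was -1.02 for Tgfb2, 1.69 for Tgfb3, -1.35 for Inhbb, 1.13 for Smad6, 1.19 for Smad7, 1.42 for Fst, 1.03 for Ltbp1, 2.16 for Ltbp2 and 1.40 for Id4. On day 8 it was 1.22 for Tgfb3, -1.41 for Acvr1c and 1.42 for Grem1. The sign of the Acvr1c and the size of the Grem1 difference on day 8 depended on the scale.

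Between days, the change on day 8 minus that on day 4 was -1.14 for Inha, 1.37 for Acvr2a, -1.81 for Chrd, 1.09 for Ltbp2, -1.04 for Id3 and 1.38 for Id4 in WAT cells. In BAT cells it was 2.07 for Tgfb2, 1.05 for Gdf11, 1.84 for Inhbb, -1.48 for Acvr1c, 1.02 for Smad3, 1.96 for Grem1, 1.23 for Bmper and -1.40 for Id3. Tgfb2 and Id3 were called on opposite sides of 0 on the 2 days in BAT cells, as were Chrd, Acvr2a and Id3 in WAT cells. Bmper also changed direction in BAT cells, falling with EGCG on day 4 and rising on day 8. The call of Acvr2a in WAT day 8 cells was lost with median-ratio scaling. No group has 4 or more libraries, so no library was tested as an outlier within its group.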

How the results depend on the processing

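Across 1521 refits of the 109 named changes, 1514 kept their direction and their side of the threshold. For Grem1, the day 8 difference between depots (1.42) was not called with a pseudocount of 0.1 (0.56) or with limma voom on recovered reads of 16, 24 and 23 libraries (0.31, 0.21 and 0.26, with adjusted p = 0.273 to 0.72). For Acvr1c, that difference (-1.41) had the opposite sign with limma voom on 16, 24 and 23 libraries (0.44, 1.04 and 0.84, with adjusted p = 0.833, 0.467 and 0.619). The cause was not tested. limma voom was added after seeing the data, and the planned count models were not run.

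Counts of called genes stayed within 1.5 times of those reported. Leaving out 1 library gave 27 to 32 and 39 to 43 for EGCG in WAT cells on day 4 and day 8, and 31 to 35 and 37 to 42 in BAT cells. The lone library left in a group was then taken to vary like the other groups. Replicate numbers did not pair the libraries (r = -0.079 to 0.081 over 28 pairs of groups), and with a replicate block 34, 43, 38 and 43 genes were called in the EGCG comparisons and none of the 109 named calls changed. Median-ratio scaling of the second table changed how many called genes had the same direction in replicate 3. For EGCG in WAT day 8 cells these were 37 in place of 20 of 44, and 85.8% in place of 35.5% of all called genes. For the difference between days in WAT cells they were 31 in place of 11 of 33, and 92.2% in place of 44.5%. In BAT cells the counts for EGCG went from 38 to 37 on day 4 and from 43 to 41 on day 8. The shares of all called genes there went from 96.1% to 95.7% and from 96.2% to 90.0%.

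The 2 tested libraries per group limit precision, and genes near 1 FPKM are compressed by the pseudocount. The dose of EGCG and the separation of replicates are not known from the labels.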
